A study of Mus musculus with 35 samples.

Results

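Growth arrest and stress response genes were followed across 35 RNA sequencing libraries of mouse CD8 T cells from brain and spleen. The 8 genes were taken by name from the files, out of 38924 genes measured: the growth arrest and DNA damage genes Gadd45a, Gadd45b and Gadd45g, the B cell translocation genes Btg1 and Btg2, the cell cycle inhibitor gene Cdkn1a, and the stress genes Ddit3 and Ddit4. All 8 were found in every library's table. The cells came from C57BL/6 mice and were sorted as CD3e+CD8+CD44hiCD62Llo, a surface phenotype of memory T cells. They were held for 2 h at 37C with PMA and ionomycin, which together activate T cells without the T cell receptor, or were left without stimulation. Whether the unstimulated cells were also held at 37C is not given here. The stimulants and the 2 h of holding therefore cannot be told apart. The 7 groups were stimulated brain cells of aged females (n = 5) and aged males (n = 4), stimulated spleen cells of aged males (n = 5), unstimulated brain cells of aged females (n = 5), aged males (n = 6) and young males (n = 5), and unstimulated spleen cells of aged males (n = 5). Age is given only as aged or young. The labels do not say whether libraries came from separate or pooled mice, and the p-values therefore reflect only how these libraries vary, which may be technical. Females and young males have brain libraries here and no spleen libraries.

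GADD45 proteins are small stress sensors that bind and activate the kinase MAP3K4 upstream of p38 and JNK, and GADD45B and GADD45G take part in cytokine output of T cells. BTG1 and BTG2 recruit the CCR4-NOT deadenylase, which shortens the poly(A) tails of mRNAs, and in mice they are known to keep T cells quiescent. CDKN1A (p21) inhibits cyclin-dependent kinases and is a classic p53 target. DDIT3 (CHOP) is a transcription factor made late in the unfolded protein and integrated stress responses, and DDIT4 (REDD1) restrains the growth kinase complex mTORC1.

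On GRCm38 with GENCODE M21, 4 of the 8 genes lie on chromosome 10. These are Ddit4 (chr10:59949669-59951834, minus strand), Gadd45b (chr10:80930073-80932204, plus), Btg1 (chr10:96617006-96622809, plus) and Ddit3 (chr10:127290774-127296288, plus). Btg2 lies at chr1:134075170-134079120 (minus), Gadd45a at chr6:67035096-67037457 (minus), Gadd45g at chr13:51846678-51848468 (plus) and Cdkn1a at chr17:29090976-29100727 (plus). All are protein-coding genes. Ddit3 overlaps Mars, which encodes methionyl-tRNA synthetase, on the other strand, together with another entry of its own name. Gadd45a and Cdkn1a each overlap an entry that is not protein-coding on the other strand. The use of strand in counting is not given in the sources used here, so the values of these 3 genes are uncertain to that extent. Mars averaged 16.3 ± 6.66 CPM in stimulated spleen and 24.9 ± 3.38 CPM in unstimulated spleen (SD, n = 5 each), the opposite order to Ddit3 there, and was at 0 counts in all 4 stimulated male brain libraries, where Ddit3 was at 0 in 1.

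Promoter windows of RefSeq on GRCm38.p6, from 250 bases before to 50 after the start, were matched for all 8 genes, with 2 windows for Cdkn1a. The windows of Gadd45b, Btg2 and Ddit3, which rose in stimulated spleen, and of Ddit4, which did not pass the test there, are shown because these genes frame the main comparison. Capitals mark matches, on either strand, to the AP-1 letters TGANTCA, the cyclic AMP response element (CRE) TGACGTCA or the CCAAT box.
Gadd45b: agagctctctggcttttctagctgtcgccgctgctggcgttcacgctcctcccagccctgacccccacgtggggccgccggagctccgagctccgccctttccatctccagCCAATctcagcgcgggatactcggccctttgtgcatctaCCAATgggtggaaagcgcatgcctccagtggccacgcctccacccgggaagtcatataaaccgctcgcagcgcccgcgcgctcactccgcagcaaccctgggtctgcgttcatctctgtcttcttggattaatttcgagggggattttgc
Btg2: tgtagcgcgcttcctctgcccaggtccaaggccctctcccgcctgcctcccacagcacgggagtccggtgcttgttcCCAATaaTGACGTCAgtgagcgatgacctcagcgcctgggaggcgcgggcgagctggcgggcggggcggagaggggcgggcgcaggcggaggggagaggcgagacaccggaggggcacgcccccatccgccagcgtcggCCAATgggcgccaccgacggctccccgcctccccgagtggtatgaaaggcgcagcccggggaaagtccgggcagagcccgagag
Ddit3: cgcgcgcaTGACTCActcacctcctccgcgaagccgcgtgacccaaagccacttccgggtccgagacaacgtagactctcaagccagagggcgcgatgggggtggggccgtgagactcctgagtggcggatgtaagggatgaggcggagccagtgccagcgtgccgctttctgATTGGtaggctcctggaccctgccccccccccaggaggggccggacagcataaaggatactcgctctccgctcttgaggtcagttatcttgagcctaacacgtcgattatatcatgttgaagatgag
Ddit4: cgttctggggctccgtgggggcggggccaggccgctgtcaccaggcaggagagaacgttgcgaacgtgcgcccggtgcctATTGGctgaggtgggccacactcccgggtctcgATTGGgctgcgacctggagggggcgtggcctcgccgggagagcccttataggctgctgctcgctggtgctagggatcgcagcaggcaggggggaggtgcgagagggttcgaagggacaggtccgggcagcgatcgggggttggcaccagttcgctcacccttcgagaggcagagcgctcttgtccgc
These 300-base windows lie at chr10:80929841-80930140 (plus strand) for Gadd45b, chr1:134079106-134079405 (minus) for Btg2, chr10:127290543-127290842 (plus) for Ddit3 and chr10:59951721-59952020 (minus) for Ddit4. In the Ddit3 window the AP-1 letters stand 242 bases before the start, and 7.81% of all 32817 distinct windows hold that motif. In the Btg2 window the CRE letters stand 166 bases before the start, and 1.79% of windows hold them. The shorter core TGACG, which lies inside the CRE on both strands, was found in Btg2 and in Btg1, where it stands 187 and 103 bases before the start, and in 20.8% of windows. The C/EBP-ATF letters TGATGNAA were found 101 bases before the start of Gadd45g and in 3.97% of windows. CCAAT, held by 37.4% of windows, was found in the windows of 7 genes and in neither window of Cdkn1a. Neither form of the NF-kB site, a strict one in 0.155% of windows and an open one in 1.63%, nor of the Egr letters (GCGTGGGCG, in 0.612%, and GCGGGGGCG, in 2.91%) was found in any of the 9 windows. A match here is a run of letters and says nothing of binding.

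Library totals and cell markers set limits on the values that follow. Stimulated brain libraries held 1.16 to 9.20 M counts, 2271 to 6769 detected genes and 38.5 to 69.7% mitochondrial counts. The other 26 libraries held 6.65 to 24.97 M counts, 6456 to 15174 genes and 8.28 to 20.8% mitochondrial counts. All 8 CD8 T cell markers (Cd3e, Cd8a and others) were detected in each group, with summed levels of 1057 to 2454 CPM in stimulated female brain, 129 to 1220 CPM in stimulated male brain and 2932 to 8752 CPM elsewhere. The choroid plexus markers Ttr, Kl and Folr1, with Folr1 at 0 in both stimulated brain groups and Kl in the male one, summed to 114 to 666 CPM in stimulated female brain and 0 to 1157 CPM in stimulated male brain, against at most 618 CPM in unstimulated brain and 0.133 CPM in spleen. The 12 microglia and macrophage markers summed to 0 to 78.3 CPM in stimulated male brain, where 8 were at 0, 166 to 906 CPM in unstimulated aged male brain, where Aif1 and Trem2 were at 0, and 114 to 234 CPM in spleen, where Tmem119 was at 0. The 4 B cell markers summed to 127 to 413 CPM in spleen and to 0 to 28.01 CPM in aged male brain, where Cd79a was at 0. The part of these in the results was not tested. All spleen titles and 2 stimulated female brain titles are written without hyphens and the others with them. The numbers that end the titles occur once each within 3 sets: unstimulated aged and young male brain (1 to 11), unstimulated female brain with the hyphenated stimulated brain libraries (1 to 12), and the titles without hyphens (1 to 12). The labels do not say what these numbers mark. Tissue, sex and the stimulation of male brain cannot be told apart from these sets, while age and the stimulation of spleen each lie within 1 set.

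Per length, in the authors' TPM, the order of the 8 genes changed with tissue and stimulation. In stimulated spleen Gadd45b led with a mean of 211 ± 90.5 TPM, before Btg1 with 161 ± 35.6 and Btg2 with 96.8 ± 23.8 TPM (SD, n = 5). In unstimulated spleen Btg1 led with 87.5 ± 15.8 TPM, and Gadd45b had 3.48 ± 0.604 TPM (SD, n = 5). In unstimulated aged male brain Btg1 again led, with 96.3 ± 32.8 TPM, before Btg2 with 34.4 ± 13.5 and Ddit3 with 31.8 ± 28.1 TPM (SD, n = 6). In stimulated female brain Gadd45b led with 62.3 ± 42.6 TPM (SD, n = 5), and in stimulated male brain Ddit3 led with 55.1 ± 71.8 TPM (SD, n = 4), a mean smaller than its SD. Gadd45g and Ddit4 had group means under 10 TPM in all 7 groups.

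**Figure D1:**
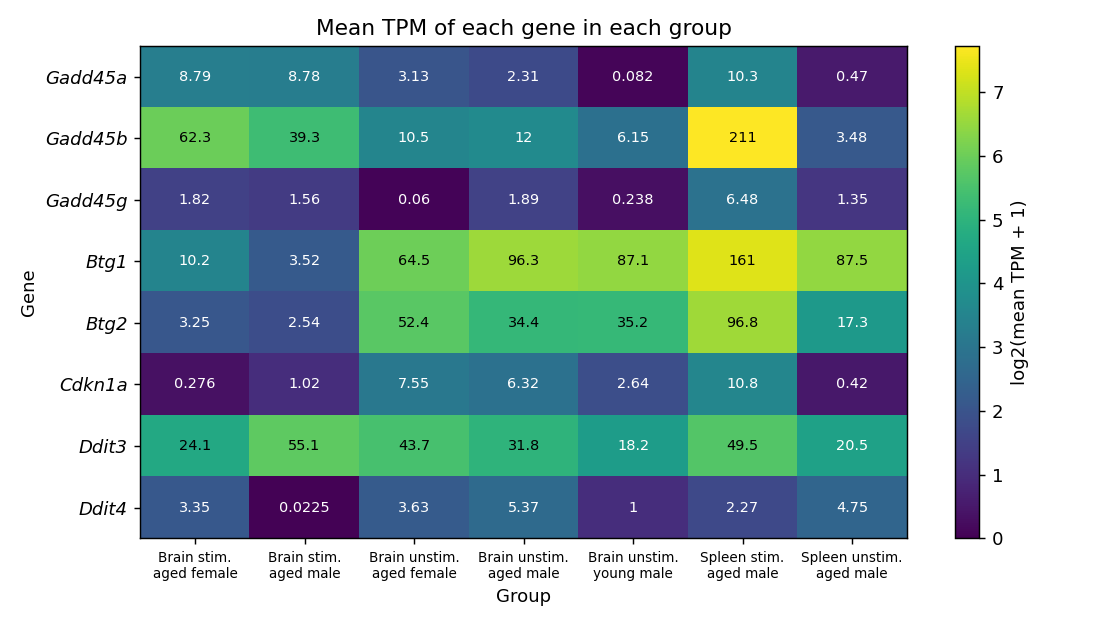
Mean TPM of the 8 genes (rows) in the 7 groups (columns), with the colour on a log2(mean TPM + 1) scale and the mean printed in each cell. Gadd45b is brightest in stimulated spleen at 211 TPM, while Btg1 holds 64.5 to 96.3 TPM in the 3 unstimulated brain groups.

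Levels between libraries are given as CPM, counts scaled to a common library total by the TMM method over all 35 libraries. On this scale 1 count was worth 0.0381 to 1.07 CPM. Of the 8 genes' values, 9 of 40 were at 0 counts in stimulated female brain, 10 of 32 in stimulated male brain and 0 of 40 in stimulated spleen. Among unstimulated groups 7 of 40 were at 0 in aged female brain, 9 of 48 in aged male brain, 8 of 40 in young male brain and 2 of 40 in spleen. In the order of each gene's 7 group means, 1 pair of neighbours had ranges that did not overlap: Btg2 in unstimulated female brain, at 52.6 to 155 CPM, and in unstimulated spleen, at 29.3 to 34.3 CPM. All other neighbouring groups in these orders overlapped.

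**Figure D2:**
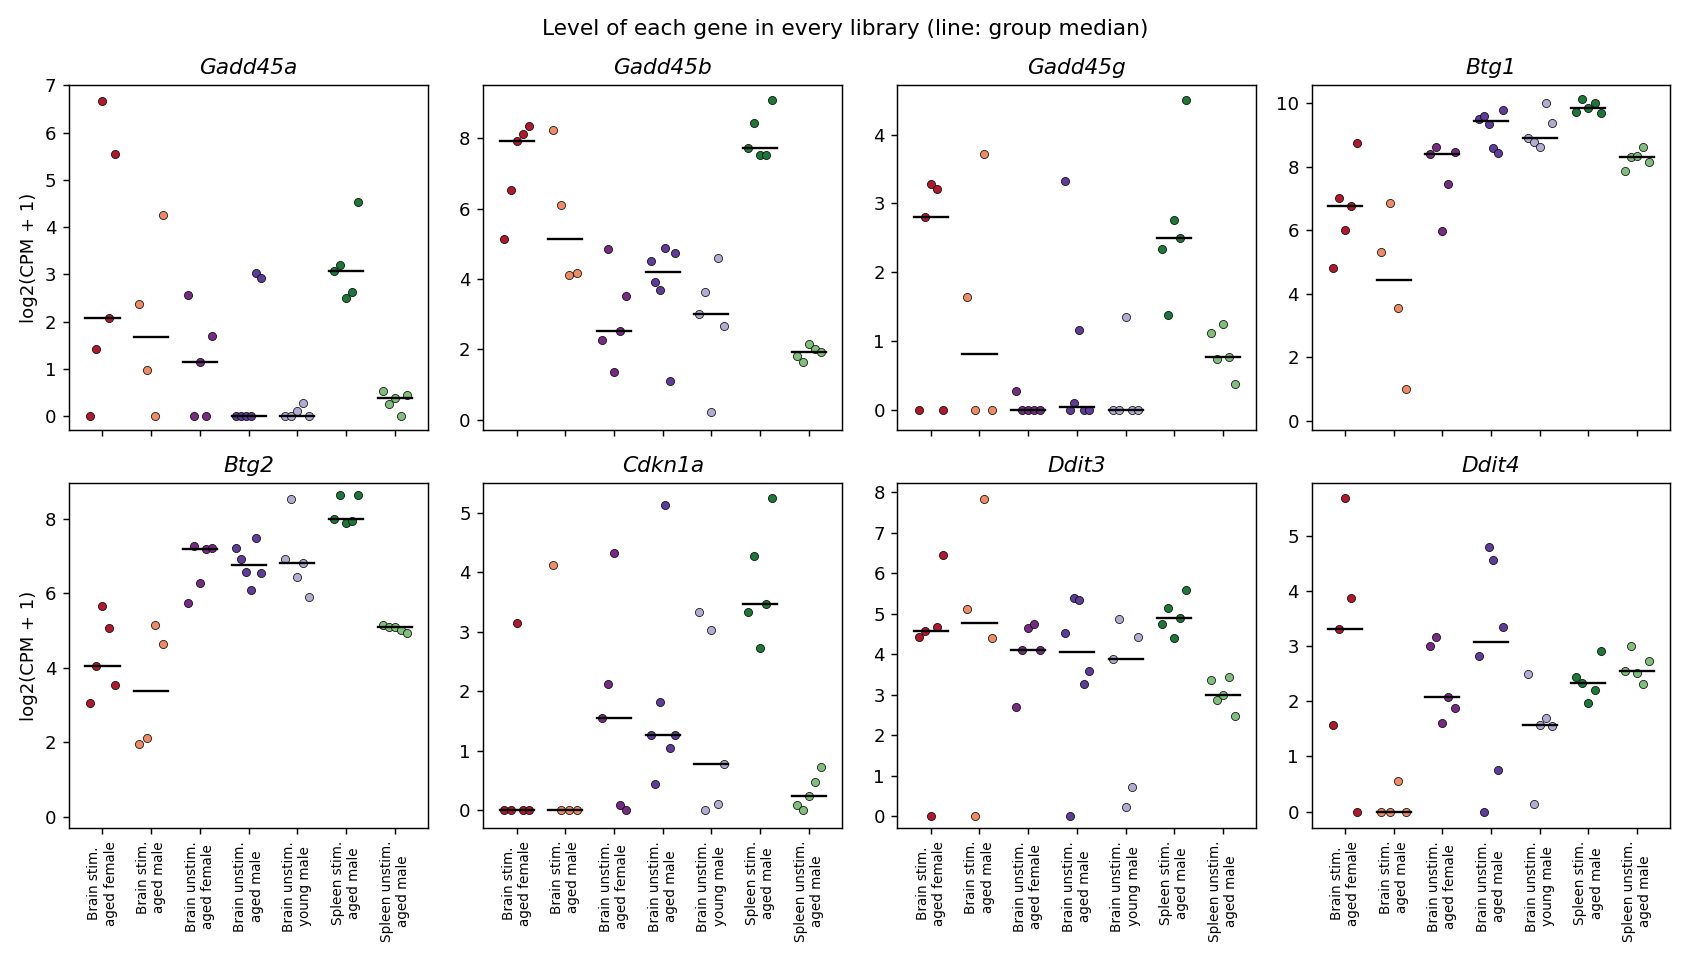
Level of each gene in every library, as log2(CPM + 1), by group, with 1 point per library and a line at the group median. Stimulated spleen lies above unstimulated spleen for 7 genes, and brain libraries of 1 group spread widely, as for Gadd45b in unstimulated aged male brain at 1.17 to 28.6 CPM.

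The spleen comparison asked how memory CD8 T cells differ after 2 h with PMA and ionomycin. All 3 Gadd45 genes, both Btg genes, Cdkn1a and Ddit3 rose in stimulated spleen, and Ddit4 did not pass the test. That is 7 of 8 genes called higher by edgeR's quasi-likelihood test (adjusted p under 0.05), where 18.7% of the 11107 genes tested were called, 12.6% higher and 6.12% lower. Gadd45a, Gadd45g and Cdkn1a passed the low-count filter only through the stimulated group, where 5 of 5 libraries reached its level, against 0, 4 and 1 of 5 unstimulated libraries, so the count is a description and not support. The ranges of the same 7 genes did not overlap between groups, as was so in this direction for 10.9% of genes. The median log2 fold change of the 8 genes was 3.18, against −0.07 over all genes. Among marker lists, 2 of 4 B cell markers and 1 of 2 tested oligodendrocyte markers were also called higher in this comparison, 3 of 6 markers of circulating or naive T cells were called lower and 1 higher, 1 of 8 CD8 T cell markers higher, and 1 of 8 microglia and macrophage markers lower; their part was not tested. In bulk samples such as these, fewer cells of a type and less RNA per cell cannot be told apart.

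Gadd45b, which activates MAP3K4, changed most. It stood at 210.0, 341, 184, 185 and 537 CPM in stimulated spleen replicates 36 to 40, against 2.53, 2.12, 3.41, 3.06 and 2.84 CPM in unstimulated spleen. Every stimulated library was far above every unstimulated one. On the log2 scale it rose by 6.67 ± 0.37 (SE), with an edgeR adjusted p of 7.1e-08. Gadd45a, its DNA damage-inducible relative, had 7.45, 8.24, 4.62, 5.18 and 22.3 CPM in stimulated spleen, against 0.455, 0.199, 0.310, 0 and 0.362 CPM in unstimulated spleen. The groups did not overlap, and at 0 to 7 counts a library in unstimulated spleen the gene entered the test only through the stimulated group. Its log2 fold change was 5.16 ± 0.75 (SE, edgeR adjusted p = 0.00047). Gadd45g, the third paralog, had 4.06, 1.59, 5.77, 4.65 and 21.6 CPM in stimulated spleen, against 1.17, 0.662, 1.37, 0.697 and 0.302 CPM in unstimulated spleen. Replicate 37 was close to the highest unstimulated library, and replicate 40 was far above the rest. It rose by 3.14 ± 0.69 on the log2 scale (SE, edgeR adjusted p = 0.0067), and by 2.21 without stimulated replicate 40, still a call. On plain library totals Gadd45g ranges overlapped.

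The deadenylase adaptors rose as well. Btg2 had 253, 396, 235, 246 and 396 CPM in stimulated spleen, against 34.3, 33.1, 33.1, 31.4 and 29.3 CPM in unstimulated spleen. The unstimulated libraries were tightly grouped, and none came near a stimulated one. The log2 fold change of Btg2 was 3.21 ± 0.19 (SE, edgeR adjusted p = 1.1e-07). Btg1 had 834, 1106, 909, 1025 and 816 CPM in stimulated spleen, against 231, 314, 322, 395 and 281 CPM in unstimulated spleen. It was already abundant without stimulation, and its change was the smallest of the 7 at 1.57 ± 0.15 on the log2 scale (SE, edgeR adjusted p = 1.1e-05). Cdkn1a, the CDK inhibitor, had 9.06, 18.4, 5.67, 10.1 and 37.0 CPM in stimulated spleen, against 0.0649, 0, 0.186, 0.387 and 0.664 CPM in unstimulated spleen. Unstimulated libraries held at most 11 counts of Cdkn1a, so it too entered the test through the stimulated group. Its log2 fold change was 5.83 ± 0.78 (SE, edgeR adjusted p = 0.00023).

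Ddit3 and Ddit4, both named for induction by DNA damage, went apart. Ddit3 had 25.7, 34.5, 20.05, 28.8 and 46.9 CPM in stimulated spleen, against 9.22, 6.36, 7.01, 9.80 and 4.53 CPM in unstimulated spleen. The groups did not overlap, and the log2 fold change was 2.05 ± 0.28 (SE, edgeR adjusted p = 0.00031). Ddit4 had 4.401, 4.07, 2.94, 3.59 and 6.53 CPM in stimulated spleen, against 4.87, 7.02, 4.72, 3.99 and 5.67 CPM in unstimulated spleen. The groups overlapped, with a log2 fold change of −0.31 ± 0.32 (SE, edgeR adjusted p = 0.56). This call depended on the scaling. TMM factors were 1.63 to 1.76 in unstimulated spleen and 0.905 to 1.12 in stimulated spleen, so plain library totals lower every fold change, and the median of all genes moved to −0.73. On plain totals, a setting chosen after seeing the data, Ddit4 was called lower at −0.996 (edgeR adjusted p = 0.02), the other 7 genes were still called higher at 0.91 to 5.95, and calls over all genes were 523 higher and 4377 lower, against 1400 higher and 680 lower with TMM. Among the 5 stimulated spleen libraries, replicate 40 was highest for 6 of the 8 genes and lowest for Btg1, and replicate 38 was lowest for 6. Replicate 40 also had the highest mitochondrial share of the 5, at 20.8% against 14.8 to 15.6% in the others, whose part was not tested.

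**Figure D3:**
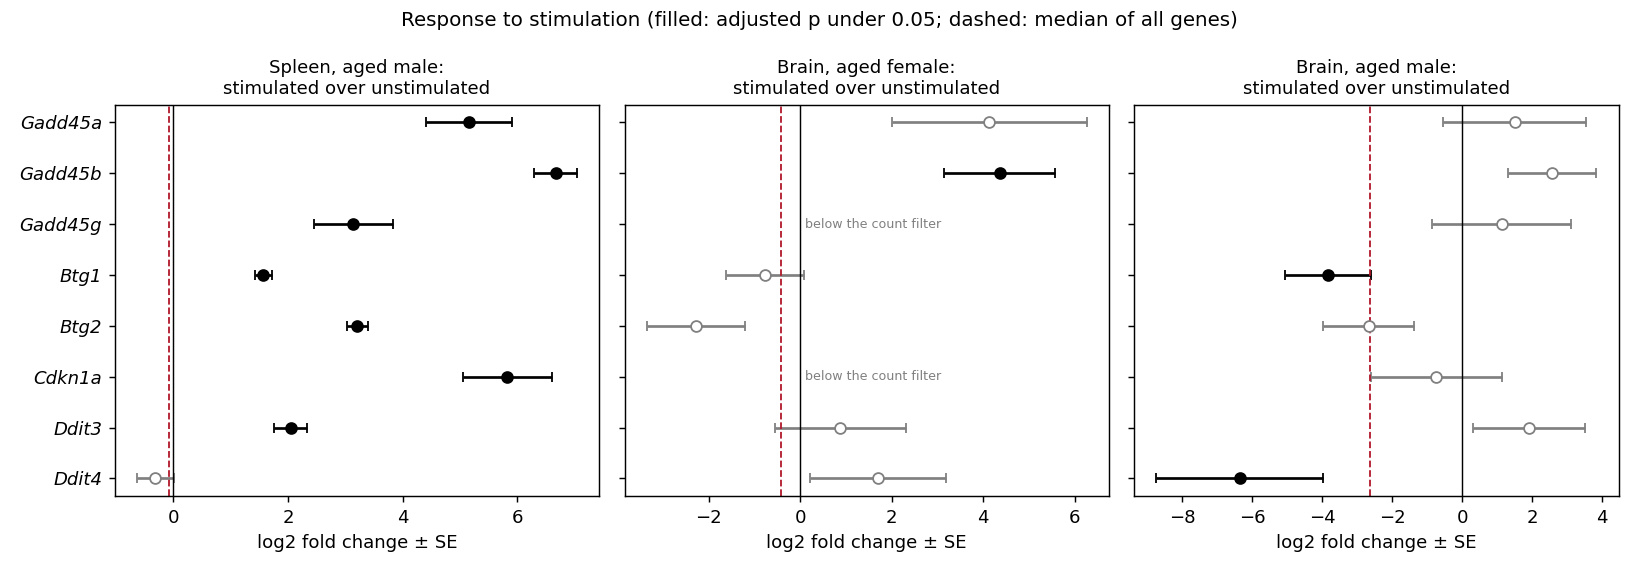
Log2 fold change of each gene (points, with SE bars) for stimulated over unstimulated cells in spleen, female brain and male brain. Filled points passed an edgeR adjusted p of 0.05, and the dashed line is the median of all genes tested. All genes but Ddit4 lie right of 0 in spleen, while Btg1 and Btg2 lie left of 0 in both brain panels.

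Unstimulated brain cells were set against unstimulated spleen cells of aged males to ask how the tissues differ at rest. The brain libraries had fewer detected genes, as given above, and the part of this was not tested. Btg2 was higher in brain and was the 1 gene called of the 7 tested, where 7.37% of 11040 genes were called, 3.35% higher and 4.02% lower. Btg2 had 147, 121, 94.5, 66.5, 178 and 91.7 CPM in brain replicates 7 to 12, against 29.3 to 34.3 CPM with a median of 33.1 in spleen. Every brain library was above every spleen library, on TMM-scaled and plain totals and in TPM, as was so on TMM-scaled totals in this direction for 4.48% of genes. In brain Btg2 was higher by 1.66 ± 0.37 on the log2 scale (SE, edgeR adjusted p = 0.0095). On plain totals it was 1.12 with an edgeR adjusted p of 0.13, no longer a call, and the median of all genes moved to −0.24, against 0.31 with TMM. Of CD8 T cell markers 3 of 8 were called higher in brain, as was the 1 choroid plexus marker tested, while 1 of 3 B cell, 1 of 10 microglia and macrophage and 1 of 1 red blood cell markers were called lower; their part was not tested.

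The other genes were not called between the unstimulated tissues. Gadd45b had 21.7, 14.01, 11.8, 28.6, 1.17 and 25.8 CPM in brain, against 2.12 to 3.41 CPM in spleen. Replicates 7, 8, 9, 10 and 12 were above every spleen library and replicate 11 was below them all. Its log2 fold change was 2.44 ± 0.93 (SE, edgeR adjusted p = 0.17), and it was 2.67 without replicate 11 (edgeR adjusted p = 0.046). Btg1 had 726, 763, 654, 386, 344 and 873 CPM in brain, against 231 to 395 CPM in spleen. Replicates 10 and 11 lay within the spleen range and the others above it. For Btg1 the log2 fold change was 0.82 ± 0.25 (SE, edgeR adjusted p = 0.063), and it reached an adjusted p of 0.028 without replicate 10 and 0.019 without replicate 11. Cdkn1a had 0.353 to 2.52 CPM in brain replicates other than 10, which had 34.3 CPM, against 0 to 0.664 CPM in spleen. Its log2 fold change was 4.53 ± 1.67 (SE, edgeR adjusted p = 0.15), and 2.14 without brain replicate 10. Ddit3 had 0 to 41.2 CPM in brain with a median of 16.5, against 4.53 to 9.80 CPM in spleen (log2 fold change 1.28 ± 1.09, SE). Ddit4 had 0 to 26.9 CPM in brain with a median of 7.64, against 3.99 to 7.02 CPM in spleen (0.87 ± 1.22). Gadd45g was at 0 counts in 3 of the 6 brain libraries and at 9.06 CPM in replicate 7 (0.85 ± 1.64). Gadd45a was at 0 in 4 of them and at 7.20 and 6.60 CPM in replicates 11 and 12, and did not pass the low-count filter.

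To place unstimulated brain cells on the scale of the spleen response, the same 6 libraries were set against stimulated spleen, where both tissue and stimulation differ. Gadd45b and Btg2 were lower in unstimulated brain, 2 of 8 genes, where 3.84% of 9926 genes were called, 1.45% higher and 2.39% lower. Gadd45b had 1.17 to 28.6 CPM in unstimulated brain, with a median of 17.8, against 184 to 537 CPM in stimulated spleen. Its log2 fold change was −4.16 ± 0.62 (SE, edgeR adjusted p = 0.0017). Btg2 had 66.5 to 178 CPM in unstimulated brain, against 235 to 396 CPM in stimulated spleen, with a log2 fold change of −1.49 ± 0.31 (SE, edgeR adjusted p = 0.011). Neither gene's ranges overlapped, as was so in this direction for 5.18% of genes. As a share of the stimulated spleen mean, unstimulated aged male brain held 5.89% for Gadd45b, 38.1% for Btg2, 66.6% for Btg1 and 65.3% for Ddit3. Ddit4 stood at 254% of it, with overlapping ranges and a log2 fold change of 1.26 ± 1.26 (SE, edgeR adjusted p = 0.72). Of CD8 T cell markers 2 of 8 were called higher in unstimulated brain, with 1 of 5 for microglia and macrophages and 1 of 1 for choroid plexus, and 2 of 4 B cell and 1 of 1 red blood cell markers were called lower. The 3 comparisons among these groups share libraries and are not independent of each other.

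**Figure D4:**
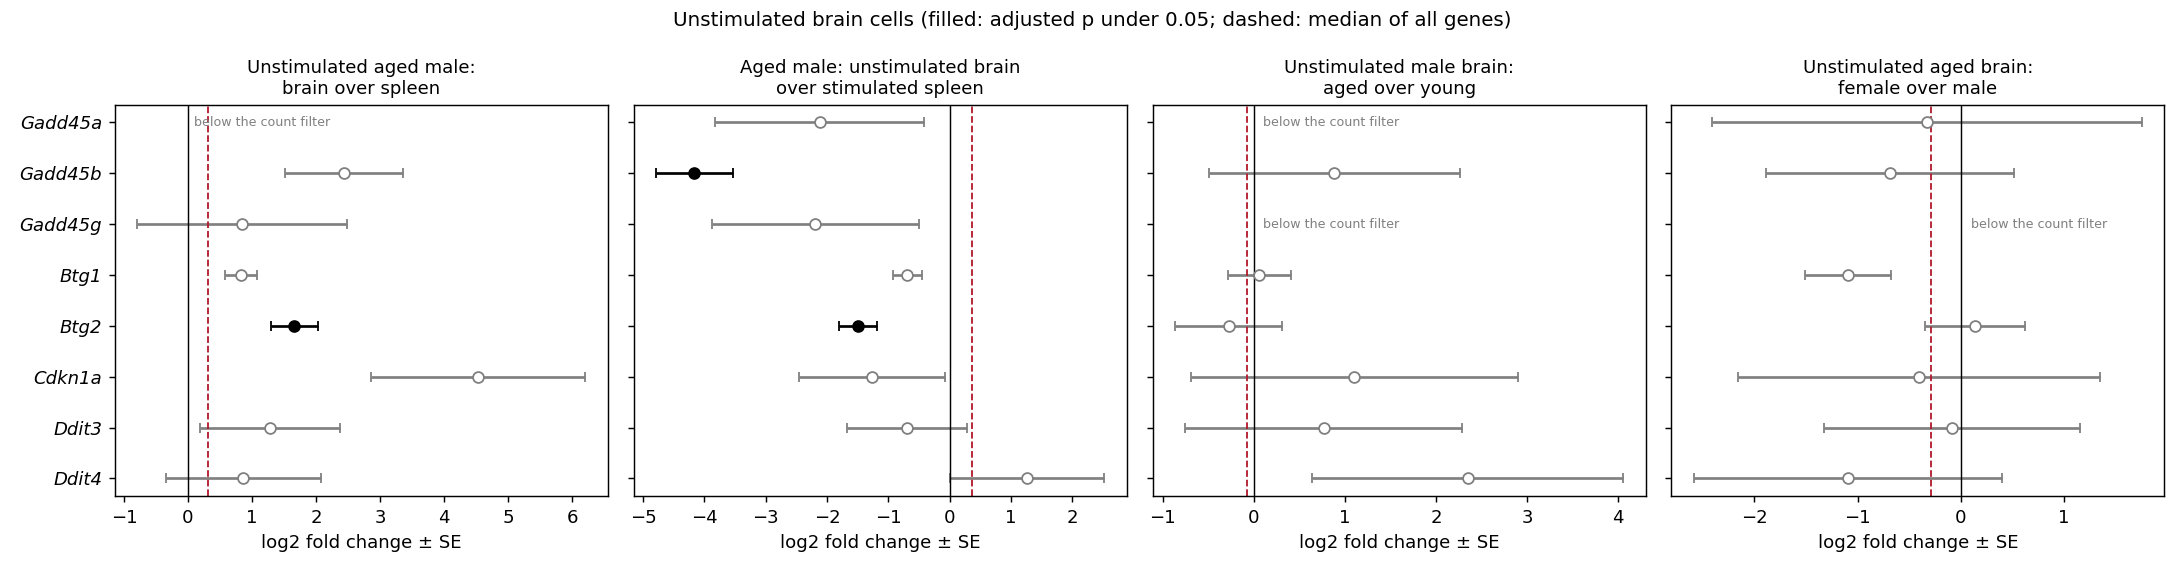
Log2 fold change (points, with SE bars) of each gene in unstimulated brain cells against unstimulated spleen, against stimulated spleen, between ages and between sexes. Filled points passed an edgeR adjusted p of 0.05, the dashed line is the median of all genes tested, and genes under the low-count filter carry no point. Btg2 lies right of 0 at 1.66 against unstimulated spleen and left of 0 at −1.49 against stimulated spleen.

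Stimulation of brain cells was measured in females and males. In females Gadd45b was higher with stimulation, 1 of 6 genes tested, where 6.09% of 6305 genes were called, 1.92% higher and 4.17% lower. Gadd45b had 34.2, 92.1, 241, 277 and 327 CPM in stimulated female brain, against 3.78, 27.9, 1.58, 4.79 and 10.5 CPM in unstimulated female brain. The lowest stimulated library was just above the highest unstimulated one, a separation in this direction that 3.65% of genes showed, and on plain totals and in TPM the ranges overlapped. On the log2 scale Gadd45b was higher by 4.36 ± 1.21 (SE, edgeR adjusted p = 0.045). The call was lost without any 1 of unstimulated replicates 13, 14, 15, 16 and 17 or stimulated replicates 24, 25, 26 and 27 (log2 fold changes 3.999 to 5.24, edgeR adjusted p 0.06 to 0.14) and held without stimulated replicate 23. It was also lost on plain totals (2.89, edgeR adjusted p = 0.16) and with hyphenated titles only, within 1 set of title numbers (3.53, edgeR adjusted p = 0.14). Oligodendrocyte markers, of which Mog and Mag were at 0, summed to 158 to 376 CPM in stimulated and 27.4 to 69.4 CPM in unstimulated female brain, and 1 of the 2 tested was called higher, as was the 1 choroid plexus marker tested. Their part in the Gadd45b difference was not tested.

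Btg2 had 7.35, 15.6, 49.7, 32.7 and 10.7 CPM in stimulated female brain, against 52.6, 155, 76.1, 146 and 148 CPM in unstimulated female brain. All stimulated libraries were below all unstimulated ones, as was so in this direction for 9.91% of genes, but the log2 fold change of −2.28 ± 1.08 (SE) did not pass the test (edgeR adjusted p = 0.32). Btg1 ranged from 27.1 to 429 CPM in stimulated female brain and from 62.3 to 389.7 CPM in unstimulated female brain, and replicate 27 alone held the 429 CPM. Gadd45a had 0, 1.66, 101, 3.23 and 45.9 CPM in stimulated female brain and 0 to 4.94 CPM in unstimulated female brain. Replicates 25 and 27 carried its mean, and the log2 fold change of 4.14 ± 2.13 (SE) was not called. Gadd45g and Cdkn1a did not pass the filter. Gadd45g had 5.98, 8.73 and 8.26 CPM in stimulated replicates 24, 25 and 26, was at 0 in the other two, and was seen in 1 unstimulated library with 3 counts. Cdkn1a was seen in 1 stimulated library, replicate 25 with 7.84 CPM, and in 4 of 5 unstimulated libraries at up to 19.2 CPM. Ddit3 had 0 to 86.4 CPM in stimulated female brain and 5.49 to 25.8 CPM in unstimulated female brain, with a ratio of means of 1.76 on TMM-scaled totals and 0.670 on plain totals. Ddit4 had 0 to 50.4 CPM in stimulated female brain and 2.06 to 8.04 CPM in unstimulated female brain.

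In males Btg1 and Ddit4 were lower with stimulation, 2 of 8 genes, where 38.1% of 7540 genes were called, 1.75% higher and 36.4% lower, and the median of all genes was −2.63. Btg1 had 39.1, 115, 10.7 and 1.003 CPM in stimulated male brain replicates 19 to 22, against 344 to 873 CPM with a median of 690.1 in unstimulated male brain. No library of 1 group reached the other, as was so in this direction for 35% of genes. The log2 fold change of Btg1 was −3.83 ± 1.23 (SE, edgeR adjusted p = 0.023). This call came with a shift of most genes and does not set Btg1 apart. Ddit4 was at 0 counts in 3 stimulated libraries and at 1 count in replicate 21, against 0 to 475 counts a library in unstimulated male brain, where 1 of 6 was at 0. Summed over libraries, the ratio of stimulated to unstimulated was 0.00860, with an exact 95% counting interval of 0.000218 to 0.0480, which covers counting error only. The fitted log2 fold change of Ddit4, −6.35 ± 2.38 (SE, edgeR adjusted p = 0.044), depends on the prior count and is no bound. Ddit4 passed the low-count filter only through the unstimulated group, where 4 of 6 libraries reached its level, against 0 of 4 stimulated ones, so its call is a description and not support. It lost its call without any 1 of stimulated replicates 19, 20, 21 and 22 (−10.20 to −5.80, edgeR adjusted p 0.057 to 0.1).

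Btg2 had 2.86, 3.36, 34.4 and 24.1 CPM in stimulated male brain, against 66.5 to 178 CPM in unstimulated male brain. The ranges did not overlap, as was so in this direction for 35% of genes. The log2 fold change of −2.67 ± 1.31 (SE) lay at the median of all genes and did not pass the test (edgeR adjusted p = 0.12). Btg2 was called lower on plain totals (−3.38, edgeR adjusted p = 0.049), with DESeq2 (−2.38, 0.046), with limma voom (−3.20, 0.019) and with all 35 libraries in the edgeR fit (−2.85, 0.015). The medians of all genes in these settings were −3.13, −2.465, −3.66 and −3.74. Genes called lower were 2956, 3151 and 3115 of 7540 in the first 3 settings and 4531 of 12956 in the last. These calls thus came with a shift of most genes and do not set Btg2 apart. Gadd45b had 301, 67.2, 16.3 and 17.1 CPM in stimulated male brain, against 1.17 to 28.6 CPM in unstimulated male brain. Replicates 19 and 20 were above every unstimulated library and replicates 21 and 22 were among them. On the log2 scale its difference was 2.58 ± 1.27 (SE, edgeR adjusted p = 0.12), and 1.01 without replicate 19. Ddit3 had 33.97, 0, 229.7 and 20.1 CPM in stimulated male brain, against 0 to 41.2 CPM in unstimulated male brain, so its mean rested on replicate 21. Cdkn1a was at 0 in 3 stimulated libraries and at 16.4 CPM in replicate 19. Gadd45a and Gadd45g were at 0 to 18.1 and 0 to 12.1 CPM in stimulated male brain, and neither was called. Of CD8 T cell markers 5 of 8 were called lower with stimulation, with 3 of 5 tested for circulating or naive T cells, 3 of 5 for microglia and macrophages and 1 of 1 for neutrophils and monocytes, while 1 of 2 oligodendrocyte markers was called higher.

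The difference between the 2 tissues' responses was tested directly in aged males, as the brain response minus the spleen response. Of the 8 genes 5 were called, all lower in brain, where 37.8% of 12117 genes were called, 2.1% higher and 35.7% lower, and the median of all genes was −4.04. The differences on the log2 scale were −6.06 ± 1.01 for Btg2 (SE, edgeR adjusted p = 8.8e-05), −5.50 ± 1.04 for Btg1 (0.00032), −4.14 ± 1.19 for Gadd45b (0.0098), −6.19 ± 1.98 for Ddit4 (0.018) and −6.56 ± 2.27 for Cdkn1a (0.028). Gadd45b thus stood at the median of all genes. The test was against 0 and not against that median, so the calls do not set the 5 genes apart from a shift of most genes. The Cdkn1a difference lost its call without unstimulated brain replicate 10 (−4.19, edgeR adjusted p = 0.09) or stimulated spleen replicate 40 (−5.97, 0.052). Ddit4 held 1 count over the stimulated brain libraries, so its difference depends on the prior count. Its call is a description and not support, and was lost in 2 of 9 other settings. Cdkn1a reached the level of the filter in 1 of 4 stimulated brain and 1 of 5 unstimulated spleen libraries. Btg1 reached it in 3 of 4 stimulated brain libraries. Both passed through the other groups, so their calls are descriptions and not support. Gadd45a at −3.79 ± 2.44, Gadd45g at −2.08 ± 2.29 and Ddit3 at −0.24 ± 1.61 were not called. The same contrast was called lower for 6 of 8 CD8 T cell, 4 of 6 circulating or naive T cell, 3 of 10 microglia and macrophage, 2 of 4 B cell and 1 of 1 neutrophil and monocyte markers, and higher for 1 of 2 oligodendrocyte markers.

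Stimulated brain was also set against stimulated spleen. Btg1, Btg2 and Ddit4 were lower in stimulated brain, 3 of 8 genes, where 48.5% of 9135 genes were called, 1.82% higher and 46.7% lower, and the median of all genes was −3.02. The log2 fold changes were −4.33 ± 1.15 for Btg1 (SE, edgeR adjusted p = 0.011), −4.01 ± 1.01 for Btg2 (0.0077) and −4.99 ± 0.85 for Ddit4 (0.00092). Btg1 reached the level of the filter in 3 of 4 stimulated brain libraries and Ddit4 in 0 of 4. Both passed through the spleen group, so their calls are descriptions and not support. The fitted log2 fold change and SE of Ddit4 depend on the prior count and are no bound. Ranges of these 3 genes did not overlap, as was so in this direction for 54.7% of genes. Their calls thus came with a shift of most genes and do not set these 3 genes apart. For Ddit4 the 1 count in stimulated brain gave a summed ratio of 0.0219 to stimulated spleen, with an exact 95% counting interval of 0.000552 to 0.123 (counting error only). The Gadd45 genes, Cdkn1a and Ddit3 were not called at −1.72 to 1.40. Without stimulated brain replicate 19, the library with the highest Gadd45b and Cdkn1a of its group, 2 more genes were called lower. These were Gadd45b at −2.99 (edgeR adjusted p = 0.016) and Cdkn1a at −9.76 (edgeR adjusted p = 0.0032). Both calls follow from leaving out the highest library, so they are descriptions and not support. Cdkn1a was then at 0 in every stimulated brain library left, and its value depends on the prior count and is no bound. It reached the level of the filter in 1 of 4 stimulated brain libraries and 5 of 5 stimulated spleen libraries. Called lower in stimulated brain were 1 of 8 CD8 T cell, 4 of 6 circulating or naive T cell, 4 of 4 B cell, 2 of 2 CD4 T cell and 1 of 4 microglia and macrophage markers and the 1 marker tested for each of NK cells, endothelial cells, and neutrophils and monocytes. Called higher were 1 of 2 oligodendrocyte markers and the 1 astrocyte marker tested. The stimulated brain libraries in these comparisons are the ones with few detected genes and a high mitochondrial share described above, and the part of these in the differences was not tested.

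Of the 6 genes tested, 0 were called between aged and young males in unstimulated brain, Gadd45a and Gadd45g being under the low-count filter, where 0 of 8068 genes were called by edgeR. At an unadjusted p under 0.05 edgeR found 374 genes (4.64%), DESeq2 called 72 genes after adjustment and limma voom called 1, with none of the 6 among either tool's calls. Btg1 had 344 to 873 CPM in aged and 391 to 1012 CPM in young male brain, with a log2 fold change of 0.06 ± 0.35 (SE). Btg2 had 66.5 to 178 CPM in aged and 59.3 to 365 CPM in young male brain (−0.28 ± 0.59), and the young value of 365 CPM was replicate 3 alone. Ddit4 had 0 to 26.9 CPM in aged and 0.0967 to 4.61 CPM in young male brain, with 4 of 6 aged libraries above every young one, and its log2 fold change was 2.35 ± 1.71 (SE, edgeR adjusted p = 0.99). Gadd45b had 1.17 to 28.6 CPM in aged and 0.172 to 23.3 CPM in young male brain (0.88 ± 1.37), and Ddit3 had 0 to 41.2 and 0.172 to 28.4 CPM in these groups (0.76 ± 1.52). Standard errors above 1 for Gadd45b, Cdkn1a, Ddit3 and Ddit4 leave differences of several fold undetected.

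Of the 7 genes tested, 0 were called between females and males in unstimulated aged brain, Gadd45g being under the filter, where 0.15% of 8691 genes were called, all of them lower in females. At an unadjusted p under 0.05 edgeR found 365 genes (4.2%), and neither DESeq2 nor limma voom called any of the 7. Of the 13 marker lists, 0 held a called gene between ages or sexes. Btg1 had 333, 389.7, 62.3, 174 and 349 CPM in female brain replicates 13 to 17, against 344 to 873 CPM in male brain. Replicates 13, 15 and 16 were below every male library, and replicates 14 and 17 lay just inside the male range. On the log2 scale the difference was −1.10 ± 0.42 (SE, edgeR adjusted p = 0.96). Btg2 had 52.6 to 155 CPM in female and 66.5 to 178 CPM in male brain, with a log2 fold change of 0.14 ± 0.49 (SE). The other 5 genes tested had log2 fold changes of −1.09 to −0.08 with standard errors of 1.21 to 2.09.

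Genes that work with the 8 were described from 6 lists. Some of them were near 0 in 1 of the groups compared and passed the low-count filter only through the other. The list counts below are therefore descriptions and not support. In stimulated spleen, 6 of 16 tested genes of the BTG/TOB family and CCR4-NOT rose and 0 fell, where 12.6% of all genes rose and 6.12% fell. Among them Tob2 (the first of 2 entries of that name), an antiproliferative BTG relative, had 216 ± 101 CPM in stimulated and 17.4 ± 1.23 CPM in unstimulated spleen (SD, n = 5 each), a log2 fold change of 3.60 ± 0.29 (SE). Its relative Btg3 rose by 2.32 ± 0.41, and the rest called were Tob1, Cnot4, Cnot6l and Pabpc1. Of 21 genes of the integrated stress and unfolded protein responses 7 rose and 0 fell. Atf3, a stress transcription factor, had 131 ± 124 CPM in stimulated spleen and 2 counts in all in unstimulated spleen, so it entered the test only through the stimulated group. Ppp1r15a (GADD34), which directs removal of the eIF2alpha phosphate, had 542 ± 207 CPM in stimulated and 47.9 ± 5.02 CPM in unstimulated spleen, a log2 fold change of 3.47 ± 0.24. Of 18 p53 genes 6 rose and 0 fell, led by the polo-like kinase genes Plk2 (5.46 ± 0.43) and Plk3 (5.01 ± 0.31).

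In the GADD45 and p38/JNK list 3 of 13 genes rose and 1 fell in stimulated spleen, where 12.6% of all genes rose and 6.12% fell. The 1 gene that fell in this list and in each of the next lists is a share near that over all genes. The p38 substrate kinase gene Mapkapk2 rose by 1.81 ± 0.27 and the p38 activator gene Map2k3 by 1.58 ± 0.37 on the log2 scale (SE), while Map3k4 (the first of 2 entries of that name), the kinase that GADD45 proteins bind, fell by 0.86 ± 0.22. In the G1 list 0 of 14 rose and 1 fell, the D-type cyclin gene Ccnd2 at −0.86 ± 0.15. In the mTORC1 list 4 of 17 rose, among them Rheb (1.64 ± 0.28), which encodes the GTPase that activates mTORC1, and Tsc22d3 (1.01 ± 0.25), which encodes the glucocorticoid-induced leucine zipper protein, and Mtor itself fell by 0.52 ± 0.16. List medians ran from −0.18 for the G1 list to 0.59 for the stress response list, against −0.07 over all genes. On plain totals these counts became 3 higher and 6 lower for BTG/TOB and CCR4-NOT, 5 and 4 for the stress responses, 4 and 7 for p53, 1 and 5 for GADD45 and p38/JNK, 0 and 7 for G1, and 1 and 8 for mTORC1. Of all 11107 genes, 523 were higher and 4377 lower on these totals. Map2k3 (0.86, edgeR adjusted p = 0.056) and Tsc22d3 (0.33, edgeR adjusted p = 0.25) were then not called.

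**Figure D5:**
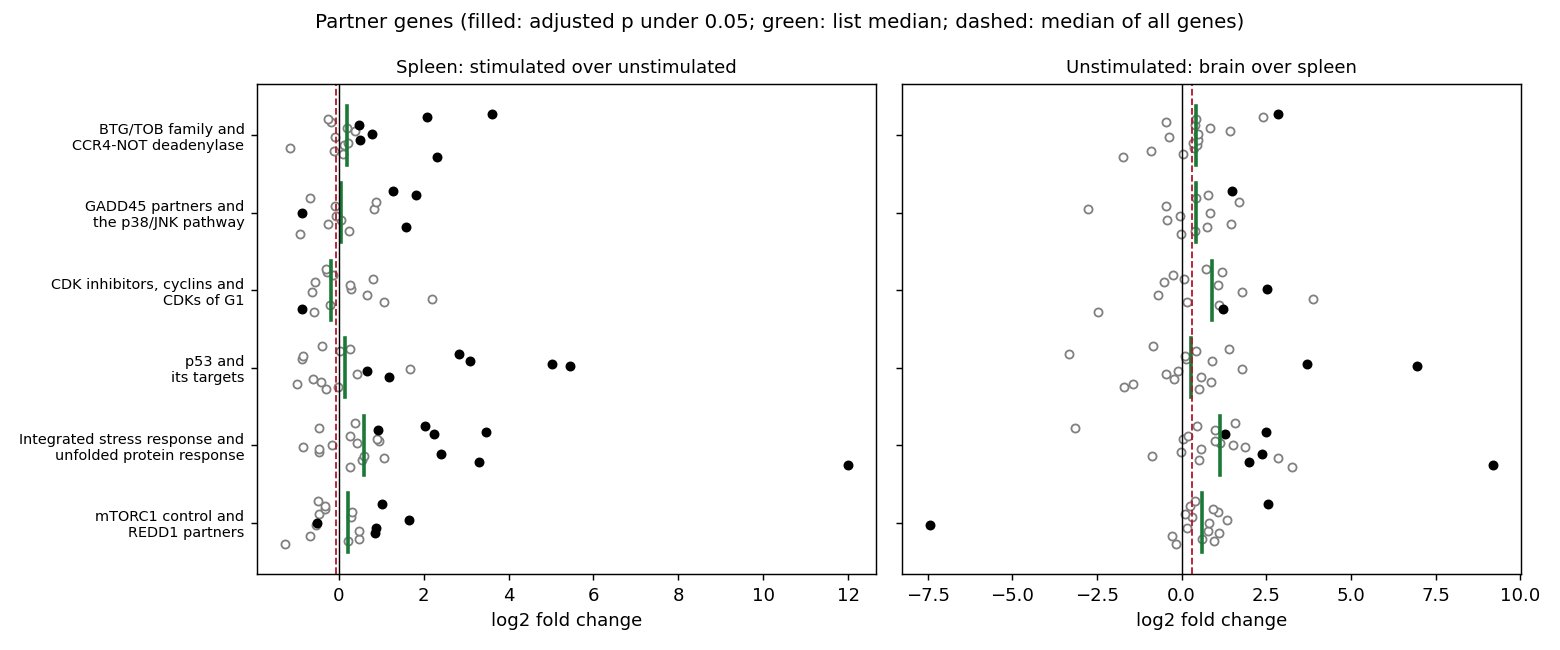
Log2 fold change of each tested gene in the 6 partner lists for stimulated over unstimulated spleen and for unstimulated brain over unstimulated spleen. Filled points passed an edgeR adjusted p of 0.05, the green bar is the list median and the dashed line the median of all genes. The called genes with the highest values are Atf3, Plk2 and Plk3 in both panels.

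In unstimulated brain against unstimulated spleen, 5 of 21 stress response genes were higher and 0 lower, where 3.35% of all genes were higher and 4.02% lower, with a list median of 1.14, against 0.31 over all genes. Ppp1r15a had 307 ± 126 CPM in brain (SD, n = 6) and 47.9 ± 5.02 CPM in spleen (SD, n = 5), a log2 fold change of 2.48 ± 0.32. Atf3 held 2209 counts summed over the brain libraries and 2 over the spleen libraries, so it entered the test only through the brain group. Its summed ratio was 871 on TMM-scaled totals with an exact 95% counting interval of 241 to 7200, which covers counting error only. Between brain libraries its level was 20.7 ± 30.7 CPM (SD, n = 6). The others called were Atf4, which drives Ddit3 transcription, the endoplasmic reticulum chaperone gene Hspa5 and the co-chaperone gene Dnajb9. In the p53 list Plk2 (6.95 ± 1.12) and Plk3 (3.70 ± 0.67) were higher and 0 of 18 lower. Tob2 (2.85 ± 0.38) was the 1 gene of 16 called, a share near that over all genes, in the BTG/TOB and CCR4-NOT list, and Pcna (1.49 ± 0.27), the DNA clamp gene, the 1 of 13 in the GADD45 list. Of 14 G1 genes, Cdk6 (2.51 ± 0.55) and Ccnd2 (1.21 ± 0.26) were higher. On plain totals the stress response, p53, BTG/TOB and GADD45 counts were the same as with TMM, while Cdk6 (1.99, edgeR adjusted p = 0.052) and Ccnd2 (0.66, edgeR adjusted p = 0.24) were not called. Of all 11040 genes, 139 were higher and 516 lower on these totals. In the mTORC1 list 1 of 17 was higher, Tsc22d3 (2.56 ± 0.44), and 1 was lower, Mlst8, a subunit gene of the complex, under the level set for giving values.

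No partner gene was called between ages or sexes in unstimulated brain by edgeR. In stimulated female brain 2 of 18 stress response genes were lower, Atf6 and Eif2ak4, and 0 genes of the other 5 lists were called. Over all genes there 1.92% were higher and 4.17% lower. Atf6, which encodes an endoplasmic reticulum stress sensor, held 1 count over the stimulated libraries and 2345 over the unstimulated ones, a summed ratio of 0.00221 with an exact 95% counting interval of 0.000056 to 0.0123 (counting error only). In stimulated male brain each list had genes called lower: 6 of 15 for BTG/TOB and CCR4-NOT, 2 of 9 for GADD45 and p38/JNK, 6 of 11 for G1, 3 of 14 for p53, 7 of 19 for the stress responses and 3 of 15 for mTORC1, where 36.4% of all genes were called lower. Many of these were at 0 counts in all 4 stimulated libraries and passed the filter only through the unstimulated group. Examples are the pocket protein gene Rbl2, with 327 ± 255 CPM in unstimulated male brain (SD, n = 6), the deadenylase subunit gene Cnot8, with 65.1 ± 34.96 CPM, and the JNK kinase gene Map2k4, with 72.4 ± 83.8 CPM. The 1 gene called higher was Atf3, with 374 ± 248 CPM in stimulated male brain (SD, n = 4) and 20.7 ± 30.7 CPM in unstimulated male brain (SD, n = 6), a log2 fold change of 4.29 ± 1.42 (SE, edgeR adjusted p = 0.026). Against stimulated spleen, unstimulated brain had 2 of 13 G1 genes higher, Cdk6 (2.27 ± 0.60) and Ccnd2 (2.13 ± 0.32). The death receptor gene Tnfrsf10b (−6.08 ± 1.49), at 0.242 CPM in unstimulated brain, was the 1 of 18 p53 genes called lower. Hspa5 (−0.89 ± 0.20) was the 1 of 21 stress response genes called lower, and with DESeq2 size factors 0 of them were. In the mTORC1 list 1 of 17 was lower, under the level set for giving values. Over all genes 1.45% were higher and 2.39% lower.

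Across all 35 libraries, genes with a pattern most like each of the 8 were ranked by Spearman correlation of log2(CPM + 1) among 5913 genes. Gadd45b went most closely with the nuclear receptor genes Nr4a3 (rho = 0.85) and Nr4a2 (0.84). Gadd45a went with the cytokine genes Tnfsf14 (0.67) and Ifng (0.64), and Gadd45g with Fbxl17 (0.76) and Baiap2 (0.68). Btg1 went with Dnaja2 (0.83) and Cox7a2l (0.78), and Btg2 with the death ligand gene Fasl (0.81) and the costimulatory receptor gene Cd28 (0.81). Cdkn1a went with Pcna (0.71) and Fcho2 (0.71), Ddit3 with Sqstm1 (0.60) and Qars (0.55), and Ddit4 with Pole4 (0.76) and Cog1 (0.73). Among the 8 genes themselves Btg1 and Btg2 were most alike (0.71), and Ddit3 and Ddit4 least (−0.01). These are descriptions over libraries that share group, depth and the number of genes detected.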

How the data were processed

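Per the submitters' processing notes, the tools were Bowtie2 2.2.0 and RSEM 1.2.12 with build mm10. Neither strand use in counting nor the annotation release is given in the sources used here. The authors deposited whole-number counts for 38924 genes in 1 table, which differ from the expected counts the authors deposited per library by at most 0.5. The deposited TPM were used to compare genes per length, and the deposited FPKM were not used. Of the identifiers, 37607 (96.6%) were found in GENCODE M21. RSEM shares reads between similar genes.

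Counts were tested in R 4.3.3 with edgeR 4.0.16: filterByExpr by group (minimum count 10), TMM, and the robust quasi-likelihood test, two-sided, on the groups compared only, with Benjamini-Hochberg adjustment over all genes tested and a threshold of 0.05. The standard error is the log2 fold change divided by the square root of F. The tissue by stimulation difference was a contrast over 4 groups. The 9 comparisons share libraries. CPM use 1 TMM scaling over 35 libraries. Each test was checked on simulated counts, where planted changes were recovered far less often in comparisons with brain libraries than in spleen stimulation, so a gene not called there is not shown to be unchanged. Every pair of libraries within a group differed by more than counting noise, with chi-square over degrees of freedom of at least 13.0. From each partner list, up to 2 called genes a direction were named by size of change, if their mean was at least 5 CPM. Tob1, Cnot4, Cnot6l, Pabpc1, Atf4, Hspa5, Dnajb9, Mlst8 and Eif2ak4 fall outside that rule in some comparison and were named after their values were seen. In male brain stimulation 3 of the 12 lower genes that the rule names are given as examples. Genes alike needed a mean of at least 10 CPM. Intervals are exact 95% binomial. Members and lists were chosen with earlier results of these data known. Alternatives used DESeq2 1.42.0 and limma 3.58.1 voom; plain library totals were added after seeing the data. Python 3.11.15 with pandas 2.3.3, scipy 1.17.1 and matplotlib 3.10.9 made tables and figures. Library totals were 1.16 to 24.97 M counts. Of 13 marker lists, those with called genes are given beside the comparison; 1 marker gene is not reported here.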

Additional observations from a re-analysis of the deposited data

Results flagged for a closer look

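In 15 of 56 sets of a gene's libraries in a group, 1 library stood apart from the others by Dixon's criterion. Its rate of about 1 in 20 sets by chance holds for normally distributed values. Many values here are low counts, and where all other libraries are at 0 any count is flagged. The 15 sets are therefore a description and are not set against that rate. In stimulated spleen, replicate 40 had 22.3 CPM of Gadd45a and 21.6 CPM of Gadd45g, against 4.62 to 8.24 and 1.59 to 5.77 CPM in the other libraries. Cdkn1a, the CDK inhibitor gene, stood apart in all 4 aged brain groups: at 7.84 CPM in stimulated female replicate 25 and 16.4 CPM in stimulated male replicate 19, where all others were at 0, and at 19.2 CPM in unstimulated female replicate 15 and 34.3 CPM in unstimulated male replicate 10, where the others had at most 3.37 and 2.52 CPM. In stimulated female brain, replicate 27 had 429 CPM of Btg1 and 86.4 CPM of Ddit3, against at most 127 and 24.4 CPM in the others, and replicate 25 had 50.4 CPM of Ddit4, against at most 13.7 CPM. Replicate 21 of stimulated male brain held 229.7 CPM of Ddit3, against at most 33.97 CPM in the others, and 0.465 CPM of Ddit4, which is 1 count. In unstimulated brain, Gadd45g had 0.206 CPM in female replicate 13 and 1.55 CPM in young male replicate 4, with 0 in the others of each group, and 9.06 CPM in aged male replicate 7, against at most 1.24 CPM. Btg2 had 365 CPM in young male replicate 3, against 59.3 to 120 CPM in the others.

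The response to stimulation differed between brain and spleen of aged males for 5 genes by the contrast itself: on the log2 scale the brain response minus the spleen response was −4.14 for Gadd45b, −5.50 for Btg1, −6.06 for Btg2, −6.56 for Cdkn1a and −6.19 for Ddit4, with edgeR adjusted p of 8.8e-05 to 0.028. Over all 12117 genes 37.8% passed and the median was −4.04. The test was against 0 and not against that median. Ddit4 held 1 count over the stimulated brain libraries, so its value depends on the prior count. Ddit4, Cdkn1a and Btg1 reached the level of the low-count filter in 0, 1 and 3 of 4 stimulated brain libraries. The calls of these 3 genes are therefore descriptions and not support. The part of depth, mitochondrial share and cell markers in these differences was not tested.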

How the results depend on the processing

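Over 66 gene and comparison values, 1350 alternatives were run: 1256 kept direction and call, 34 lost a call, 17 gained one and 43 changed sign, all of values that were not called. The cause was not tested unless stated. The number of the 8 genes called was 7 in spleen stimulation, 8 on plain totals and 1 with all 35 libraries in the fit, which share 1 estimate of spread (53 genes called over all, against 2080). For unstimulated tissue it was 1, but 2 with DESeq2, and 0 on plain totals and in the fit of all libraries. Over all genes 814 of 11040 were called there, against 1164 with DESeq2, 655 on plain totals and 641 of 12956 in that fit. For female brain stimulation the number of the 8 called was 1, but 2 with DESeq2, 3 in the fit of all libraries, and 0 on plain totals, without the low-count filter or with hyphenated titles only. Over all genes 384 of 6305 were called there, against 878 with DESeq2, 2549 of 12956 in the fit of all libraries and 536 on plain totals. Without the filter 704 of 16344 were called, and 135 of 8757 with hyphenated titles. For male brain stimulation the number of the 8 called was 2, but 3 on plain totals, 4 with DESeq2 and in the fit of all libraries and 0 without the filter. Over all genes 2875 of 7540 were called there, against 3071 on plain totals and 3369 with DESeq2. The fit of all libraries called 5018 of 12956, and 3271 of 14879 were called without the filter. For stimulated tissue the number of the 8 called was 3, but 5 with voom, where calls over all genes rose from 4434 to 5495 of 9135. For the tissue by stimulation contrast the number of the 8 was 5, but 4 with voom and 3 in the fit of all libraries. Over all genes 4577 of 12117 were called in the contrast, against 2773 with voom and 3227 of 12956 in that fit. For unstimulated brain against stimulated spleen the number of the 8 was 2, but 1 with voom and in the fit of all libraries. Over all genes 381 of 9926 were called there, against 700 with voom and 579 of 12956 in that fit. Leaving out 1 library at a time, the number of the 8 called was 7 to 7, 1 to 3, 0 to 1, 1 to 2, 3 to 5, 4 to 5 and 2 to 2 in the same order, and 0 throughout for age and sex.

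Signs of uncalled values changed as follows. With voom they were −2.20 for Gadd45g and −0.45 for Ddit4 between unstimulated tissues, −0.13 for Btg1 and 0.10 for Btg2 with age, −0.036 for Ddit3 in female stimulation, 1.80 for Gadd45a, −0.00300 for Btg2 and 0.27 for Ddit4 between sexes, −1.04 for Ddit3 between stimulated tissues and 0.13 for Gadd45g in the contrast. On plain totals they were −0.62 for Ddit3 in female stimulation and 0.19 for Ddit3 between sexes. With DESeq2 size factors or test Ddit3 was 0.065 with each between sexes, and 0.40 and 0.39 in the contrast. With all libraries Btg2 was −0.012 between sexes, and with hyphenated titles Ddit3 was −0.38 in female stimulation. Leaving out 1 library gave, between unstimulated tissues, Gadd45g −1.77 to 1.11; with age, Btg1 −0.059 to 0.35, Btg2 −0.48 to 0.30 and Cdkn1a −1.28 to 1.79; in female stimulation, Ddit3 −0.080 to 1.06; in male stimulation, Gadd45a −0.42 to 1.87, Gadd45g −1.17 to 1.51, Cdkn1a −9.54 to 1.71 and Ddit3 −0.12 to 2.28; between sexes, Btg2 −0.0080 to 0.31, Cdkn1a −2.30 to 2.01 and Ddit3 −0.34 to 0.26; between stimulated tissues, Gadd45a −2.23 to 0.21 and Ddit3 −0.63 to 1.76; and in the contrast, Gadd45g −4.27 to 0.56 and Ddit3 −2.26 to 0.13. Of 56 group means, 7 moved by more than their SD on plain totals, all in unstimulated spleen, and 12 on non-mitochondrial totals. Low counts limit the stimulated brain values most, where 1 count was worth up to 1.07 CPM. No paired analysis was possible because the groups share no replicate numbers.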
